A study of Rattus norvegicus with 45 samples.

Results

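The genes described here are 41 genes of glycolysis and glycogen metabolism, taken by name, with earlier results of these data known, and matched to the arrays by the platform's gene symbol. Of the 41, 40 had a probe set annotated with that symbol alone, and 39 had at least 1 probe set that passed the filter on low signal. Together they had 53 tested probe sets among 21729 tested on the array, and 12 genes had more than 1. Pkm, the muscle and general pyruvate kinase, shares its probe set with a pseudogene symbol and was not analysed here. Gapdh, the glycolytic dehydrogenase, is measured only by control probe sets, which were left out of the fit and are given apart. The mean of each of the 39 genes lay above the filter's threshold in every group, so none of them was kept only because of the group in which it was high.

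RNA was measured on 45 single-colour Affymetrix arrays from skeletal muscle of female SD rats, 30 from the gastrocnemius and 15 from the soleus, each array from a biological replicate. The rats had received 0.5% methylcellulose (vehicle) or cerivastatin, a cholesterol-lowering drug that inhibits HMG-CoA reductase, once daily for 14 days. Each treatment was given with and without treadmill exercise of 20 min a day at 20 m/min on 5 days a week. The study asked how cerivastatin acts on muscle, what training adds to it, and how fibre type relates to a muscle's sensitivity. The 8 gastrocnemius groups were unexercised rats at 0 (vehicle), 0.1, 0.5 and 1.0 mg/kg/day and exercised rats at the same doses. The 4 soleus groups were unexercised and exercised rats at 0 and 1.0 mg/kg/day. Groups held 4 arrays, except that those at 1.0 mg/kg/day without exercise held 3 in either muscle, as did gastrocnemius at 0.5 mg/kg/day with exercise. The age of the rats is not given in the sources used here, and soleus arrays whose title does not name exercise were taken as unexercised. About 4 µg of RNA was labelled for gastrocnemius and 3 µg for soleus, so input and muscle cannot be told apart.

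Glycolysis splits glucose into pyruvate, which muscle turns into lactate when demand runs ahead of oxygen, and glycogen is the store of glucose that a contracting fibre draws on first. Many of these steps are run by a pair of isoforms, an abundant form in muscle fibres, above all fast fibres, and a form that most other cells use. The gastrocnemius is mostly fast and glycolytic, and the soleus is mostly slow and oxidative. In what follows, 15 tested genes are called muscle isoforms (Hk2, Pfkm, Pfkfb1, Aldoa, Fbp2, Pgam2, Eno3, Ldha, Slc16a3, Slc2a4, Gys1, Ppp1r3a, Pygm, Phka1 and Phkg1). Another 14 are called isoforms of other cells (Hk1, Pfkp, Pfkl, Pfkfb3, Pfkfb4, Aldoc, Pgam1, Eno1, Ldhb, Slc16a1, Slc2a1, Slc2a3, Pygl and Pygb), although Ldhb and Slc16a1 are also abundant in slow fibres. Both class names are labels and do not mean that a gene is confined to muscle fibres or to other cells. The remaining 10 (Gpi, Tpi1, Pgk1, Gpd1, Gpd2, Pgm1, Ugp2, Gyg1, Gbe1 and Phkb) serve muscle and other cells alike, or belong to neither class.

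Signals below are the deposited linear intensities, always in the order of replicates 1 to 4 of a group. Changes are log2 fold changes on the scale log2(signal + 12.4), and ± is the standard error. Adjusted p-values are from limma with Benjamini-Hochberg adjustment over all 21729 probe sets, and rose, fell, lower and higher calls mean an adjusted p below 0.05. Array medians ranged from 134.7 to 175.9, and no 2 arrays were duplicates. Of 5 defining skeletal muscle genes the mean log2 signal lay between 15.02 and 16.0 on the soleus arrays and on all but 1 of the gastrocnemius arrays below 1.0 mg/kg/day.

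Several arrays stood apart from their group. Unexercised 0.1 mg/kg/day replicate 3 had a mean log2 signal of 11.4 over the 15 muscle isoforms, against 13.5 to 14.1 on the 22 other gastrocnemius arrays at vehicle, 0.1 or 0.5 mg/kg/day. The same array had 14.7 over adipocyte markers, against 8.29 to 12.5, and the lowest 5' to 3' ratios of all arrays for beta-actin (0.116) and Gapdh (0.475). At 1.0 mg/kg/day, unexercised gastrocnemius replicate 3 had a muscle isoform mean of 13.9, inside the range of vehicle, while replicates 1 and 2 had 11.7 and 11.0. The same array had a Schwann cell marker mean of 14.1 and an adipocyte mean of 12.4, against 9.51 to 10.7 and 8.29 to 11.5 in unexercised vehicle. Exercised replicates 2 and 4 at that dose had 9.92 and 9.95, and replicates 1 and 3 had 12.2 and 12.4. In soleus, exercised 1.0 mg/kg/day replicate 1 and unexercised vehicle replicate 3 had adipocyte means of 14.4 and 14.3 and Schwann cell means of 14.5 and 14.3. Counts of called genes are also given without these arrays where that changed them by more than 1.5 times, and calls lost without exercised 1.0 mg/kg/day replicates 2 and 4 are named.

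**Figure D1:**
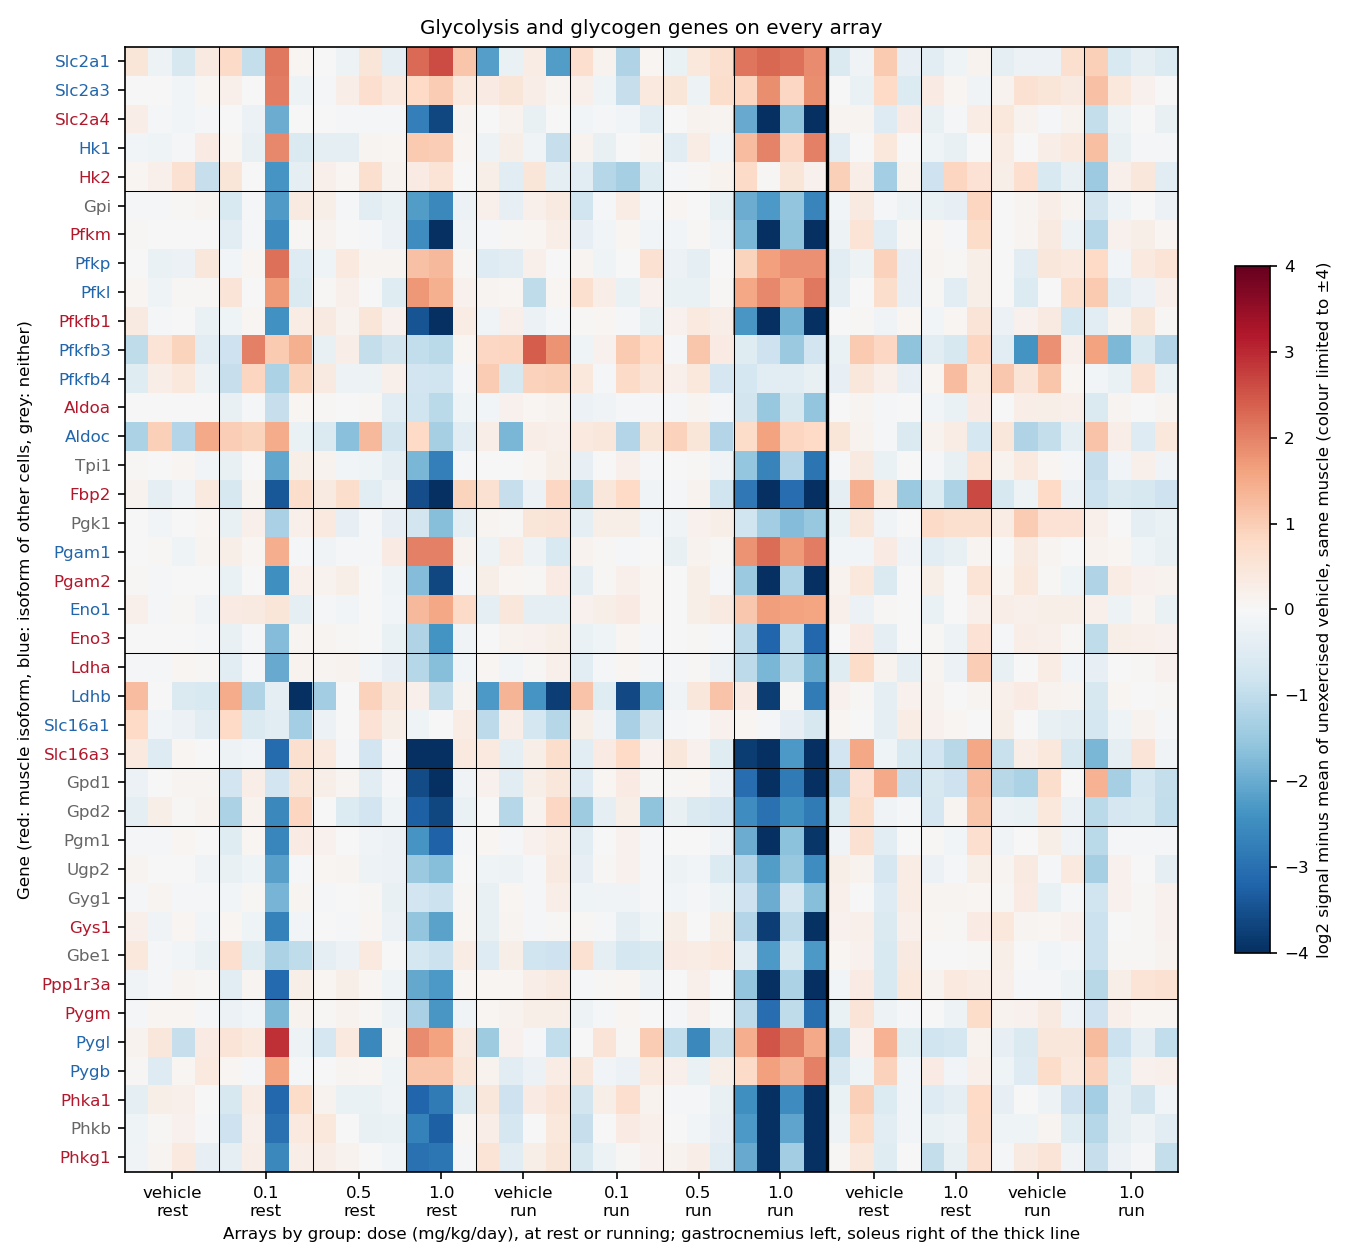
Each row is a gene and each column an array, grouped by dose in mg/kg/day, rest or running and muscle. Colour is the log2 signal minus the mean of unexercised vehicle arrays of the same muscle, limited to ±4. Most muscle isoforms (red names) are blue on 6 of the 7 gastrocnemius arrays at 1.0 mg/kg/day and on replicate 3 at 0.1 mg/kg/day at rest, and most isoforms of other cells (blue names) are red on the same arrays.

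In exercised gastrocnemius, 25 of the 39 genes were lower and 9 higher at 1.0 mg/kg/day of cerivastatin than in vehicle. Over all probe sets tested, 20.4% were called lower and 23% higher in this comparison, and the median log2 fold change was -1.82 over the 39 genes and -0.0062 over all probe sets. The isoform classes moved in opposite directions. Of the 15 muscle isoforms 14 fell and 0 rose, with a median of -3.26, and the exception was Hk2. Of the 14 isoforms of other cells 9 rose and 2 fell, with a median of 1.57, and of the 10 genes in neither class 9 fell and 0 rose, with a median of -2.20. For 24 genes all 4 treated arrays lay below all 4 vehicle arrays and for 10 all lay above, against 20.1% and 22.2% of all probe sets. With replicates 2 and 4 of the treated group left out, an alternative chosen after seeing the data, 17 genes were called lower and 8 higher, all of them among the 25 and the 9, and the median was -1.15. For this alternative the shares of all probe sets called are not given here. The calls lost were those of Pfkfb1, Pfkfb4, Pgam2, Eno3, Ldha, Gys1, Gyg1 and Ppp1r3a among the lower genes and of Slc2a3 among the higher ones. Of the 25 falls, 16 moved by more than 1.5 times in fold, and of the 9 rises 0. Those that moved and stayed called were Slc16a3 (-3.27), Gpd1 (-3.03), Fbp2 (-3.03), Phka1 (-2.60), Phkb (-2.22), Pgm1 (-1.93), Phkg1 (-1.92), Pfkm (-1.81), Slc2a4 (-1.76), Tpi1 (-1.45) and Pygm (-1.22), with adjusted p-values from limma of 0.0113 to 0.047.

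**Figure D2:**
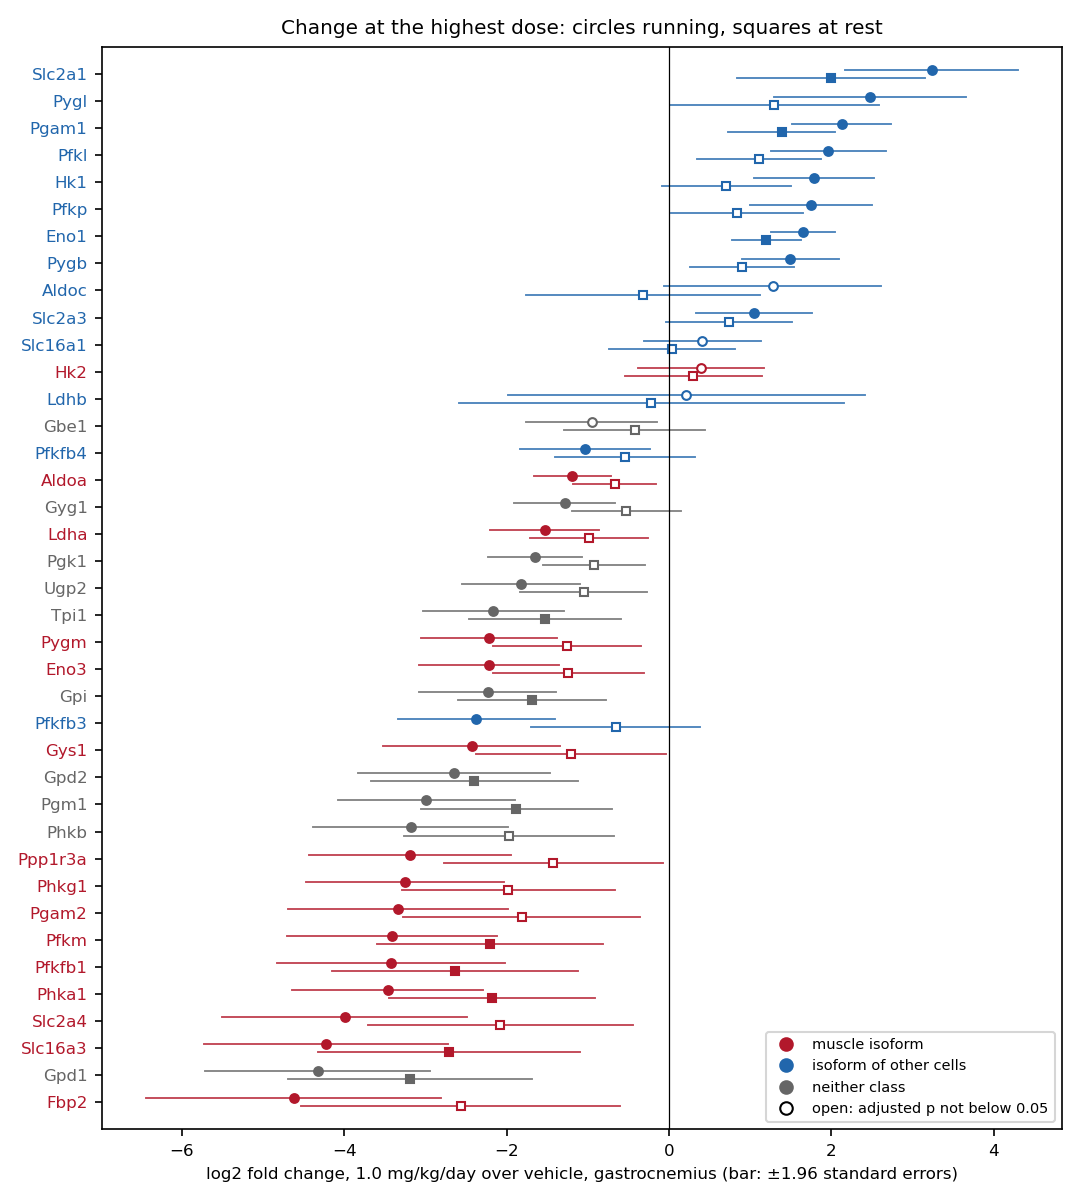
The log2 fold change of each of the 39 genes at 1.0 mg/kg/day over vehicle in gastrocnemius is shown for running rats (circles, 4 against 4 arrays) and rats at rest (squares, 3 against 4), with bars of ±1.96 standard errors. Filled symbols passed an adjusted p of 0.05. The genes run from Slc2a1 at 3.23 to Fbp2 at -4.63 in running rats, and the 9 genes that rose are all isoforms of other cells (blue). The 14 muscle isoforms that fell (red) lie among genes of neither class such as Gpd1 at -4.33, and 2 isoforms of other cells, Pfkfb3 and Pfkfb4, also fell.

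Glucose enters muscle through Slc2a4 (GLUT4), the carrier that insulin and contraction bring to the fibre surface. Its signals were 14035, 15437, 11394 and 13899 in exercised vehicle and 3471, 155, 4643 and 184 at 1.0 mg/kg/day. Every treated array lay below every vehicle array, with replicates 2 and 4 far below replicates 1 and 3, and the treated mean was 15.4% of vehicle (log2 fold change -3.99 ± 0.77, adjusted p = 0.00022). Slc2a1 (GLUT1), the carrier of most dividing and blood-borne cells, went the other way, from 36, 173, 263 and 35.2 to 970.2, 1092, 1017 and 808. All treated arrays lay above all vehicle arrays and were close to each other (3.23 ± 0.55, adjusted p = 6.55e-05). Slc2a3 (GLUT3), a high-affinity carrier of neurons and white blood cells, also rose, by 1.05 (adjusted p = 0.0227), but its call was lost under 5 of 22 alternatives. It was lost without treated replicates 2 and 4 (0.54, adjusted p = 0.413) and without either of them alone. Quantile normalization and leaving out vehicle replicate 4 also ended it.

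Hexokinases trap glucose by phosphorylating it. Hk2, the insulin-regulated muscle form, was the only muscle isoform not called, with signals of 623, 392, 745 and 401 in vehicle and 912, 548, 745 and 601 at 1.0 mg/kg/day. The 2 groups overlapped (0.39 ± 0.40, adjusted p = 0.444, interval of ±1.96 standard errors -0.38 to 1.17). Hk1, the general form, rose by 1.78 ± 0.38 (adjusted p = 0.000502) on the probe set with the highest mean, from 332, 458, 347 and 196 to 929, 1564, 700.5 and 1595. A second Hk1 probe set was at -1.53 (adjusted p = 0.0666), and the mean of the Hk1 probe sets gave 0.12 (adjusted p = 0.822), so the direction for Hk1 depends on the probe set.

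In upper glycolysis, 8 of 11 genes fell and 2 rose. Phosphofructokinase commits glucose to the pathway, and its 3 subunits moved apart. Pfkm, the muscle subunit, had signals of 52163, 55269, 56416 and 63722 in exercised vehicle and 14992, 1651, 17385 and 1862 at 1.0 mg/kg/day, without overlap (-3.41 ± 0.66, adjusted p = 0.000227). Pfkl, the liver subunit, had 304, 295, 132 and 296 against 838, 1082, 839.5 and 1248, also without overlap but upwards (1.96 ± 0.36, adjusted p = 0.000135). Pfkp, the platelet subunit, rose by 1.75 ± 0.38 (adjusted p = 0.000725). The PFKFB enzymes set the level of fructose 2,6-bisphosphate, the main activator of phosphofructokinase. All 3 of those among the 39 genes fell, Pfkfb1 by 3.43 ± 0.72, Pfkfb3 by 2.37 ± 0.49 and Pfkfb4 by 1.04 ± 0.41 (adjusted p = 0.000458, 0.000435 and 0.0409). Pfkfb2, tested but not among the 39, was at -0.89 ± 0.41 and was not called (adjusted p = 0.0786). Pfkfb3 and Pfkfb4 were the 2 isoforms of other cells that fell, and the call for Pfkfb4 was lost under 10 of the alternatives tried. Without replicates 2 and 4 the call for Pfkfb1 was lost as well (-2.06, adjusted p = 0.0643).

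Fbp2, the muscle fructose bisphosphatase, which runs the phosphofructokinase step backwards on the way to glycogen, had the largest fall of the 39 genes. Its signals were 5349, 1850.3, 2969 and 6221 in exercised vehicle and 469.8, 21.9, 413 and 58.5 at 1.0 mg/kg/day, without overlap, and the treated mean was 5.88% of vehicle (-4.63 ± 0.93, adjusted p = 0.000318). Gpi, which interconverts the hexose phosphates, and Tpi1, which interconverts the triose phosphates, fell by 2.24 ± 0.43 and 2.16 ± 0.44 (adjusted p = 0.00022 and 0.000383). Aldoa, the muscle aldolase, fell by less (-1.19 ± 0.24, adjusted p = 0.000328), and with quantile normalization it was at -0.36 (adjusted p = 0.08). Its signals ranged from 82755 to 101162 in vehicle and from 30106 to 57367 at 1.0 mg/kg/day. Aldoc, the aldolase of brain, was at 1.27 ± 0.68 and was not called (adjusted p = 0.134).

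In lower glycolysis, phosphoglycerate mutase and enolase each have a muscle and a general isoform, and both pairs parted. The muscle form Pgam2 had signals of 56220.4, 50780.0, 49547 and 59624 in exercised vehicle and 17198, 1494, 20319.5 and 1503 at 1.0 mg/kg/day. The general form Pgam1 had 2187, 3106, 2193 and 1652 against 8879, 11928, 8209.8 and 10481 on the same arrays. Neither gene's groups overlapped, and the treated mean was 18.7% of vehicle for Pgam2 and 4.32 times vehicle for Pgam1. The fold changes were -3.34 ± 0.69 (adjusted p = 0.000415) and 2.13 ± 0.31 (adjusted p = 1.85e-05). Without replicates 2 and 4 the change of Pgam2 was -1.53 and was no longer called (adjusted p = 0.0795).

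The muscle enolase Eno3 had signals of 74212, 79678, 81618 and 85494 in vehicle and 35436, 8162, 36556 and 8246 at 1.0 mg/kg/day (-2.22 ± 0.44, adjusted p = 0.000275). The general enolase Eno1 had 3316, 5888, 3359 and 3326 against 9094, 13796, 13238 and 12855 (1.65 ± 0.20, adjusted p = 6.06e-06, the smallest of the 39 genes). Groups of neither gene overlapped. Eno3 was at -1.15 (adjusted p = 0.0535) without replicates 2 and 4. Pgk1, which makes the first ATP of the pathway and has no muscle form, fell by 1.65 ± 0.29 (adjusted p = 0.000108). The 3 control probe sets of Gapdh, tested one by one with a two-sided exact permutation test, were at -1.05, -1.22 and -1.24 (p = 0.0286 each, the smallest that 4 against 4 arrays allow). Gapdh is often used as a reference gene, and its own signal was lower at this dose.

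The promoters of both pairs are shown because the 2 members of each pair moved in opposite directions. They are the 250 bases before the annotated start, 5′ to 3′ on the gene's own strand, from RefSeq with build GRCr8. Pgam2 lies at chr14:84897875-84898124 on the minus strand, Pgam1 at chr1:250672902-250673151, Eno3 at chr10:55868936-55869185 and Eno1 at chr5:166002617-166002866, the last 3 on the plus strand. Capitals mark TATAAA, the TATA box, and the hypoxia-response cores ACGTG and GCGTG on either strand (CACGT and CACGC when read from the other).
Pgam2: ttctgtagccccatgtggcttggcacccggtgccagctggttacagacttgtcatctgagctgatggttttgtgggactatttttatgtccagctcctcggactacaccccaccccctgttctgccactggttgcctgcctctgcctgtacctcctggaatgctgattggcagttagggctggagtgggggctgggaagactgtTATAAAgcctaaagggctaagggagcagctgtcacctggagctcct
Pgam1: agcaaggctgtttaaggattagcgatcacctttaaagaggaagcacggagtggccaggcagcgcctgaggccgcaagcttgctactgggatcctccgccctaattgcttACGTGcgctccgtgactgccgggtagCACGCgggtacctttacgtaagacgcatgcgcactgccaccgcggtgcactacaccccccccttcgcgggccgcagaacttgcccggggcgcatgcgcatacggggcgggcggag
Eno3: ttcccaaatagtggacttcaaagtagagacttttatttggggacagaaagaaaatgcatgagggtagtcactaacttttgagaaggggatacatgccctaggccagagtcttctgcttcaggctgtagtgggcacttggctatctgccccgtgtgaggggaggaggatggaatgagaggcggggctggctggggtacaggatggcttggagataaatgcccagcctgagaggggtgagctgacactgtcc
Eno1: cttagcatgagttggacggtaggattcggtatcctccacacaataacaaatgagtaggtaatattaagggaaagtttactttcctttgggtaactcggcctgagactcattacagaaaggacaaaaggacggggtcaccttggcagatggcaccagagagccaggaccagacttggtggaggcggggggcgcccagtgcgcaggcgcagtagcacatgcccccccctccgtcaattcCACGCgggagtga
Pgam2 held 1 TATA box and no hypoxia core, Pgam1 held 2 cores and no TATA box, Eno1 held 1 core, and Eno3 held neither motif. Pgam1 also held 3 GC boxes (GGGCGG) and the other 3 promoters none.

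Promoter sequences of 300 bases, from 250 before to 50 after the start, were matched by symbol for 36 of the 41 genes; Pgk1, Slc2a3, Slc2a4, Fbp2 and Gpd1 were not among them. Each motif was searched on both strands of the 250 bases before the start only, in these genes and in all promoters. The GC box GGGCGG was in 3 of 13 muscle isoforms and 11 of 13 isoforms of other cells, and in 30.5% of all 33469 promoters of that length. ACGTG was in 5 and 8 of the 13 (16.6% of all promoters) and GCGTG in 4 and 9 (25.9%). The E-box CANNTG, which can overlap ACGTG, was in 10 and 7 (65.5%), and TATAAA was in 2 and 0 (12.9%). The MEF2 motif was in 1 and 0 (2.96%). These are letters in a window and say nothing about which factors act there.

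Of the 4 genes of lactate handling, 2 fell and 0 rose. Slc16a3 (MCT4), which exports lactate from fast fibres, had signals of 16300.3, 9491, 14832 and 20201 in exercised vehicle and 893, 408, 2537 and 378 at 1.0 mg/kg/day. The groups did not overlap, and the treated mean was 6.93% of vehicle (-4.23 ± 0.76, adjusted p = 0.000119). Ldha, the lactate dehydrogenase subunit of fast muscle, fell by 1.53 ± 0.34 (adjusted p = 0.000837), from 58809, 51307, 57315 and 63553 to 26958, 15638, 27562 and 13483. Without replicates 2 and 4 Ldha was at -1.08 and was not called (adjusted p = 0.0634). Slc16a1 (MCT1), the carrier that slow fibres and many other cells use to take lactate up, was at 0.41 ± 0.37 and was not called (adjusted p = 0.384).

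Ldhb, the lactate dehydrogenase subunit of heart and slow fibres, varied more between gastrocnemius arrays of the same group than any other of the 39 genes, with a pooled within-group SD of 1.76 log2 units over vehicle, 0.1 and 0.5 mg/kg/day. Its signals were 2818, 35570.4, 2669 and 998 in exercised vehicle and 17265, 976, 14292 and 1992 at 1.0 mg/kg/day, and the groups overlapped (0.21 ± 1.12, adjusted p = 0.899). The order of the 8 arrays was the same for Ldhb and for the slow-fibre markers, whose mean log2 signals were 12.0, 15.1, 11.0 and 8.13 in vehicle and 14.2, 8.02, 13.9 and 10.2 at 1.0 mg/kg/day. The part of slow-fibre content in the values of Ldhb was not tested. In soleus the within-group SD of Ldhb was 0.23.

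The glycerol phosphate shuttle carries electrons from glycolysis to mitochondria and is most active in fast muscle. Its cytosolic enzyme Gpd1 had signals of 27672, 17924, 29330.0 and 34256 in exercised vehicle and 3000.0, 489, 3501 and 566 at 1.0 mg/kg/day. The groups did not overlap (-4.33 ± 0.71, adjusted p = 4.95e-05). The mitochondrial enzyme Gpd2 fell by 2.64 ± 0.60 (adjusted p = 0.000999).

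Among the 6 genes of glycogen synthesis, 5 fell and 0 rose. Pgm1 turns glucose 6-phosphate towards glycogen, and its signals were 44412, 39362, 46736 and 51766 in vehicle and 10588, 2603, 13427 and 2806 at 1.0 mg/kg/day (-2.99 ± 0.56, adjusted p = 0.000157). Ugp2, which makes the UDP-glucose that is added to glycogen, fell by 1.82 ± 0.37, and Gyg1, the primer glycogenin, fell by 1.28 ± 0.32 (adjusted p = 0.00033 and 0.00196). Without replicates 2 and 4 Gyg1 was at -0.73 and was not called (adjusted p = 0.148). Gys1, the muscle glycogen synthase, had 8619, 11289, 10124 and 10789 against 4676, 765, 5065 and 664 (-2.43 ± 0.55, adjusted p = 0.000991). All 4 treated arrays were below all vehicle arrays, but replicates 1 and 3 stayed much nearer to vehicle, and without replicates 2 and 4 Gys1 was not called (-1.06, adjusted p = 0.153). Ppp1r3a, the subunit that tethers protein phosphatase 1 to muscle glycogen, fell by 3.19 ± 0.64 (adjusted p = 0.000294), and this call too was lost without those arrays (-1.62, adjusted p = 0.0577). Gbe1, the branching enzyme, was at -0.95 ± 0.41 and was not called (adjusted p = 0.0627).

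Among the 6 genes of glycogen breakdown, 4 fell and 2 rose. Glycogen phosphorylase has a muscle form (Pygm), a liver form (Pygl) and a brain form (Pygb). Pygm had signals of 65837, 69045, 73148 and 73305 in exercised vehicle and 29842, 7438, 30358 and 7666 at 1.0 mg/kg/day (-2.22 ± 0.43, adjusted p = 0.00023). Pygl had 61.2, 212, 181 and 87.6 against 533, 1135, 844 and 558 (2.48 ± 0.61, adjusted p = 0.0018), and Pygb rose by 1.49 ± 0.30 (adjusted p = 0.00037). The muscle form was lower and the other 2 higher on every treated array than on any vehicle array. Phosphorylase kinase, which switches the phosphorylase on, fell in all 3 subunits among the 39 genes. The changes were -3.47 ± 0.60 for the muscle alpha subunit Phka1, -3.18 ± 0.61 for the beta subunit Phkb and -3.26 ± 0.62 for the muscle catalytic subunit Phkg1 (adjusted p = 8.39e-05, 0.000219 and 0.000203). The subunits Phka2 and Phkg2, tested but not among the 39, were at -0.84 ± 0.58 and -0.09 ± 0.17. Neither was called (adjusted p = 0.248 and 0.7).

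The difference between a muscle isoform and another isoform on the same array was set against vehicle for 12 pairs, a comparison that a common scaling of the array does not touch. In exercised gastrocnemius at 1.0 mg/kg/day the change of this difference was below 0 for all 12 pairs, from -7.23 for Slc2a4 minus Slc2a1 to -1.39 for Hk2 minus Hk1, with a median of -4.67. The treated arrays lay below the vehicle arrays without overlap for 10 of 12 pairs, against 20.0% of all ordered pairs of tested probe sets. The other two were Hk2 minus Hk1 (two-sided exact permutation p = 0.0857) and Ldha minus Ldhb (p = 0.257). For those 10 the exact p, not adjusted over the 12 pairs, was 0.0286, the smallest that 4 against 4 allow. The change was -5.47 for Pgam2 minus Pgam1, -5.37 for Pfkm minus Pfkl, -4.70 for Pygm minus Pygl and -3.87 for Eno3 minus Eno1. The pairs come from isoform classes chosen with earlier results of these data known. They restate changes of the same genes on the same arrays and are not separate or independent results.

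**Figure D3:**
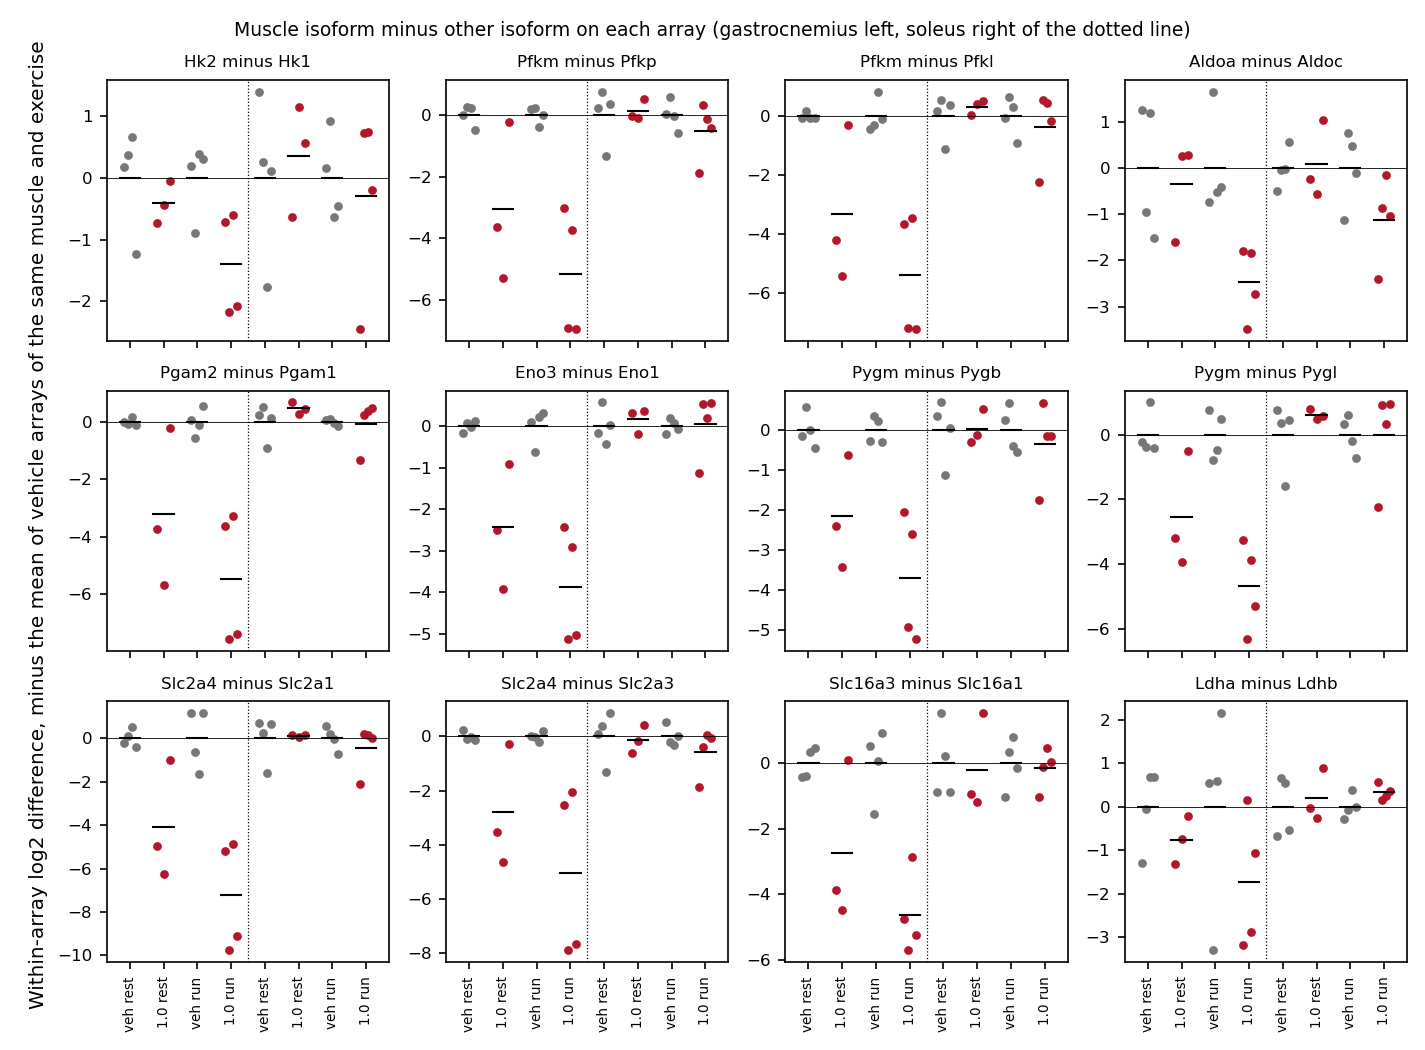
Each panel is a pair of isoforms and each point an array, with the within-array log2 difference (muscle isoform minus other isoform) minus the mean of vehicle arrays of the same muscle and exercise on the vertical axis; lines are group means. Red points are arrays at 1.0 mg/kg/day. In gastrocnemius, left of the dotted line, all 12 group means lie below 0 in running rats, while in soleus the means lie between -1.11 and 0.62.

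Of 45 tested genes of the wider pathway, 20 fell and 12 rose in exercised gastrocnemius at 1.0 mg/kg/day, with a median of -0.78. Over all probe sets 20.4% were called lower and 23% higher, so rises were little more frequent here than over the array. The 6 largest falls were in the AMP kinase subunits Prkag3 (-3.89) and Prkaa2 (-3.47), which sense low energy, in Bpgm (-2.64), Pdk2 (-2.60), Stbd1 (-2.24) and Ppargc1a (-2.02). Bpgm makes 2,3-bisphosphoglycerate, Pdk2 inhibits pyruvate dehydrogenase, Stbd1 binds glycogen, and Ppargc1a drives mitochondrial genes. The 6 largest rises were in Tkt (3.66), Pck2 (2.84), Pgm2 (2.21), Hif1a (2.15), Pgd (2.09) and Adpgk (1.98). Tkt and Pgd belong to the pentose phosphate pathway, Pck2 is the mitochondrial PEP carboxykinase, Pgm2 a phosphoglucomutase, Hif1a the oxygen-regulated factor that drives glycolytic genes, and Adpgk an ADP-dependent glucokinase. Adjusted p-values of these 12 genes lay between 1.11e-05 and 0.00409.

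Markers of other cells also differed between these groups. All 16 tested of 17 macrophage markers rose in exercised gastrocnemius at 1.0 mg/kg/day, and their summed signal was 102839 to 212597 against 6028 to 7518 in exercised vehicle. Rises were also called for 4 of 4 dividing-cell, 2 of 2 neutrophil (3 listed), 1 of 1 lymphocyte (6 listed), 4 of 5 fibroblast and 1 of 2 Schwann cell markers, and for 0 of 4 endothelial, 4 adipocyte, 3 smooth muscle and 2 erythroid markers. The lymphocyte gene, Cd8a, had a mean log2 signal of 6.10, just above the filter's threshold of 6.03. In exercised vehicle the lymphocyte and neutrophil means were 5.51 and 5.68, below it. Cd8a had a signal of only 12.9 on treated replicate 3. Lymphocyte and neutrophil markers may have passed the filter through the groups where they are high, so their calls are descriptions only. Of the markers of fibres, 10 of 11 fast-fibre and 5 of 5 skeletal muscle genes fell, and 0 of 9 slow-fibre genes were called. The mean over the 14 isoforms of other cells was 10.2, 10.4, 10.3 and 10.3 on the treated arrays and 8.99, 9.43, 9.34 and 8.91 in vehicle. The part of other cells in these changes was not tested. The 5' to 3' ratio of Gapdh, a sign of RNA quality, was 0.733 to 0.806 on the exercised arrays at 1.0 mg/kg/day and 0.837 to 0.888 in exercised vehicle, while that of beta-actin was 0.437 to 0.578 and 0.350 to 0.469, and the part of RNA quality was not tested. In whole muscle, fewer fibres and less RNA of a gene per fibre cannot be told apart.

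**Figure D4:**
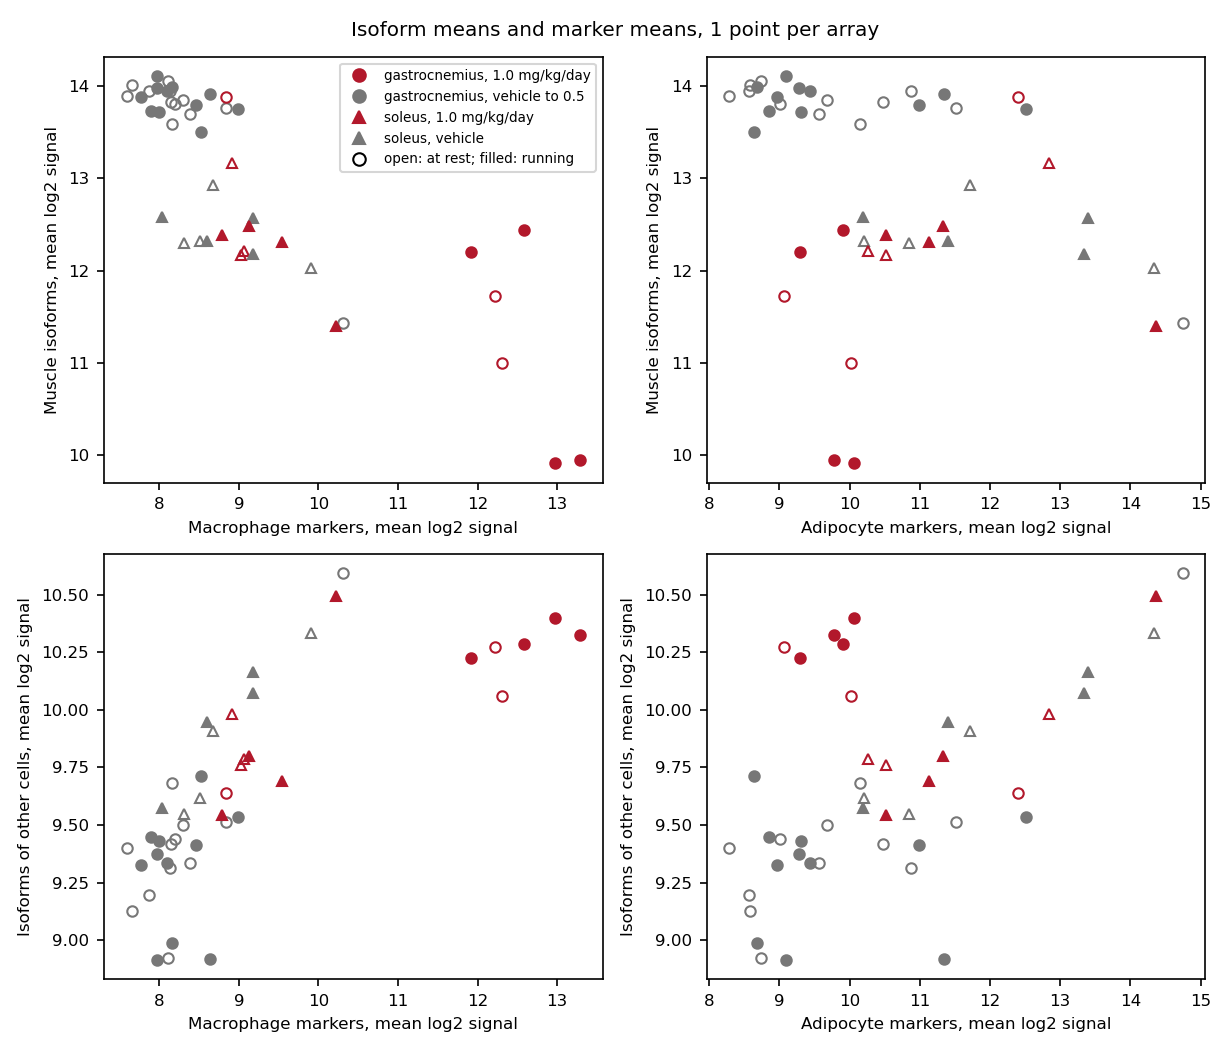
Each point is an array; the vertical axes are the mean log2 signal over 15 muscle isoforms (top) and 14 isoforms of other cells (bottom), and the horizontal axes the mean log2 signal over macrophage (left) or adipocyte (right) markers. Gastrocnemius arrays at 1.0 mg/kg/day (red circles) other than replicate 3 at rest have macrophage means of 11.9 to 13.3. The grey open circle far from the rest is replicate 3 at 0.1 mg/kg/day at rest, with a macrophage mean of 10.3 and an adipocyte mean of 14.7.

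In unexercised gastrocnemius, 9 of the 39 genes were lower and 3 higher at 1.0 mg/kg/day than in vehicle, with a median of -0.98 (0.03 over all probe sets). Over all probe sets, 3.81% were called lower and 5.7% higher. The 9 were Gpi, Pfkm, Pfkfb1, Tpi1, Slc16a3, Gpd1, Gpd2, Pgm1 and Phka1, of which 4 are muscle isoforms and 5 belong to neither class. The 3 that rose were Slc2a1, Pgam1 and Eno1, all isoforms of other cells. All treated arrays lay below all vehicle arrays for 10 genes and above for 6, against 7.47% and 7.48% of all probe sets. Of the macrophage markers, 15 of 16 rose here, with summed signals of 12689.6 to 148026, the lowest in replicate 3.

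Replicate 3 of this group differed from the other two. Pgam2 had signals of 48999.7, 46775, 47822 and 47914 in unexercised vehicle and 14443, 3808 and 45636 at 1.0 mg/kg/day. Only replicates 1 and 2 were far below vehicle, and the change of -1.81 ± 0.75 was not called (adjusted p = 0.113). Slc16a3 had 16501, 8822, 13316 and 12602 against 750.0, 546 and 16453, with the same order of replicates (-2.71 ± 0.82, adjusted p = 0.0397). Eno1 had 4975, 4098, 4438 and 3892 against 10716, 12603 and 7296, higher on all 3 treated arrays (1.20 ± 0.22, adjusted p = 0.00852). Of the 39 genes, 22 lay inside the range of the vehicle arrays in replicate 3, against 5 in replicate 1 and 2 in replicate 2. With this array and 0.1 mg/kg/day replicate 3 left out, 23 genes were called lower and 9 higher. Without treated replicate 3 alone the counts were 22 and 6, and with only the 0.1 mg/kg/day array left out, 18 and 6. Without replicate 1 or replicate 2 of the treated group, 0 genes were called. Without vehicle replicate 1, 2, 3 or 4 the lower genes numbered 2, 1, 1 and 4 and the higher ones 2, 2, 2 and 3. The shares of all probe sets called with these arrays left out are not given here, so the counts cannot be set against them.

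The 12 isoform differences were all below 0 at rest too, from -4.07 to -0.35 with a median of -2.65, and the treated arrays lay below the vehicle arrays without overlap for 7, against 7.11% of all ordered pairs of probe sets. Of the wider pathway, 5 of 45 genes fell and 5 rose, against 3.81% and 5.7% of all probe sets. Those that fell were Prkag3 (-2.91), Bpgm (-1.89), Pklr (-1.29), Pgm2l1 (-1.10) and Txnip (-0.92). Those that rose were Pck2 (2.84), Tkt (2.31), Hif1a (1.37), Pgd (1.14) and Taldo1 (1.03). Gapdh's control probe sets were at -0.59 to -0.69 (exact permutation p = 0.0571, the smallest that 3 against 4 arrays allow).

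Exercise was compared with rest at 1.0 mg/kg/day and as an interaction with the dose. At 1.0 mg/kg/day, 0 of the 39 genes were called between exercised and unexercised rats by limma, and 0.0046% of all probe sets were called. At an unadjusted p below 0.05 there were 5 of the 39 genes and 11.7% of all probe sets. Those 5 were Slc2a4 (-1.97), Ppp1r3a (-1.57), Gys1 (-1.28), Gbe1 (-0.999) and Gyg1 (-0.77), all with values below 0. The interaction called 0 genes (0% of all probe sets), with 1 gene and 6.33% of all probe sets at an unadjusted p below 0.05, and its interval had a median half-width of 1.28 log2 units. With array weights, which give less weight to arrays that vary more, 25 genes were called between exercise and rest at 1.0 mg/kg/day and 10 in the interaction. Whether the larger number of calls with exercise is a difference between exercised and unexercised rats therefore depends on the weighting of the arrays. The share of all probe sets called with array weights is not given here, so the counts of 25 and 10 cannot be set against it.

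Exercise alone, in vehicle rats, called 0 of the 39 genes in gastrocnemius and 0 in soleus (0% of all probe sets in both), with 1 and 2 genes at an unadjusted p below 0.05 (3.33% and 2.97% of all probe sets). The gene in gastrocnemius was Pfkfb3, a strong activator of phosphofructokinase that many cells induce under stress. It had signals of 571, 1698, 2136 and 861 at rest and 2060.0, 2132, 6317 and 4072 with exercise. Only replicates 3 and 4 with exercise lay above all arrays at rest, and the change of 1.48 ± 0.49 was not called (adjusted p = 1).

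At 0.1 and 0.5 mg/kg/day, 0 of the 39 genes were called in gastrocnemius by limma, with exercise or without (0% of all probe sets in each of the 4 comparisons). With an unadjusted p below 0.05 there were 2 genes at 0.1 mg/kg/day with exercise, 1 at 0.5 mg/kg/day with exercise, and 0 at either dose at rest, against 2.73% to 4.4% of all probe sets in these comparisons. Medians over the 39 genes were -0.11 at both doses with exercise, and -0.53 at 0.1 and -0.04 at 0.5 mg/kg/day at rest. The value at 0.1 mg/kg/day rests on replicate 3, and it was -0.02 with that array left out. The interactions of exercise with these doses called 0 genes (0% of all probe sets), with 1 gene at 0.1 and 0 at 0.5 mg/kg/day at an unadjusted p below 0.05 (2.8% and 2.72% of all probe sets). Of the 45 genes of the wider pathway 0 were called at these doses, with 0 to 3 at an unadjusted p below 0.05. Slc2a4 had signals of 13115, 13661, 13055 and 10567 at 0.1 and 14214, 15747 and 15228 at 0.5 mg/kg/day with exercise, close to the range of exercised vehicle, and 3471, 155, 4643 and 184 at 1.0 mg/kg/day.

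In soleus, 1.0 mg/kg/day called 0 of the 39 genes with exercise and 0 at rest by limma, with 0% of all probe sets called. At an unadjusted p below 0.05 there were 6 genes with exercise and 1 at rest (5.32% and 2.73% of all probe sets). Medians were -0.25 and 0.09, and 30 and 15 of the 39 genes had values below 0. With exercise, all treated arrays lay below all vehicle arrays for 4 genes (Gpi, Pgk1, Ldhb and Gpd2) and above for 0, against 1.67% and 1.63% of all probe sets. At rest they lay below for 0 and above for 1 (Pgk1), against 1.7% and 2.04%. Slc2a4 had signals of 17751, 14700.3, 12660.0 and 14539 in exercised vehicle and 6820.0, 11474, 13150.3 and 10782 at 1.0 mg/kg/day. On 3 of 4 treated arrays it was below all vehicle arrays, and the change of -0.53 ± 0.22 was not called (adjusted p = 0.908). Pgam2 had 23519, 29701, 23051 and 19773 against 9595, 27479.6, 24938 and 24721, with replicate 1 of the treated group below all vehicle arrays and replicates 2 to 4 within their range. That array lay below the other 14 soleus arrays for 21 of the 39 genes, and with it and unexercised vehicle replicate 3 left out the medians were -0.15 and 0.02, with 0 genes called.

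Pgk1 had values of opposite sign in the 2 soleus comparisons, at -0.73 ± 0.19 with exercise (adjusted p = 0.747) and 0.68 ± 0.20 at rest (adjusted p = 1). Its interaction of exercise with dose was -1.41 ± 0.27 and was not called (adjusted p = 0.999), and the interaction called 0 genes in all (0% of all probe sets), with 2 at an unadjusted p below 0.05 (3.24% of all probe sets). A second Pgk1 probe set was at 0.11 ± 0.27 at rest and -0.62 ± 0.36 in this interaction, and neither was called. The size of these Pgk1 values thus depends on the probe set. The changes of the isoform differences were -1.11 to 0.33 with exercise and -0.20 to 0.62 at rest, and arrays overlapped for all 12 pairs in both, against 1.66% and 2.03% of all ordered pairs of probe sets with treated arrays below vehicle. Summed macrophage signals in exercised soleus were 12595 to 30528 at 1.0 mg/kg/day and 7404 to 17687 in vehicle. The control probe sets of Gapdh were at -0.35 to -0.42 with exercise (exact permutation p = 0.0286, the smallest possible) and at 0.02 to 0.05 at rest.

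The muscles of vehicle rats differed in part of this set. Against unexercised vehicle gastrocnemius, unexercised vehicle soleus was lower for 12 and higher for 0 of the 39 genes (3.76% and 3.26% of all probe sets), with a median of -0.92. The 12 were 6 muscle isoforms (Pfkfb1, Fbp2, Ldha, Slc16a3, Phka1 and Phkg1) and 6 genes of neither class (Gpi, Pgk1, Gpd1, Gpd2, Pgm1 and Phkb). The call for Pfkfb1 (adjusted p = 0.0498) was lost under 14 of 20 alternatives. That for Pgm1 was lost under 8, that for Gpd1 under 5, and those for Fbp2 and Slc16a3 under 1 each. In exercised vehicle rats 14 were lower and 8 higher (6.83% and 6.33% of all probe sets), with Pfkfb3 and Pygm joining the lower ones. The 8 higher were Slc2a1, Hk1, Pfkp, Pgam1, Eno1, Ldhb, Slc16a1 and Gbe1. With exercise the call for Pygm (adjusted p = 0.0432) was lost under 11 of 20 alternatives, and those for Pfkfb1, Hk1 and Pfkp under 6 each. Slc2a1 lost its call under 2 and Ldhb under 1. For Hk1 the mean of its probe sets was among the alternatives without a call. With 4 arrays that stood apart left out, the counts were 15 lower and 2 higher at rest and 18 and 11 with exercise. With exercise, 4 genes were higher when vehicle gastrocnemius replicate 4 was left out, and 5 when replicate 1 was. For these counts with arrays left out, the shares of all probe sets are not given here. Of the 45 genes of the wider pathway, 5 were lower in soleus and 3 higher at rest, and 9 were lower and 5 higher with exercise. Prkag3, the muscle gamma subunit of AMP-activated protein kinase, stood at -3.27 and -3.61, and Pdk1, a kinase that switches off pyruvate dehydrogenase, at 1.47 and 1.81.

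Subunits of phosphorylase kinase and enzymes of the glycerol phosphate shuttle were among the genes lower in soleus. Phka1 had signals of 9933, 15114, 14786 and 12674 in unexercised vehicle gastrocnemius and 2173, 5069, 1795 and 2436 in soleus, without overlap (-2.29 ± 0.55, adjusted p = 0.00903). Gpd2 had 2936, 4525, 3997 and 4285 against 354, 851, 472 and 503 (-2.88 ± 0.54, adjusted p = 0.00134). Ldha had 53152, 52785, 58586 and 57835 against 10190.3, 23713, 15944 and 11153 (-1.95 ± 0.33, adjusted p = 0.000713). Slc2a4 was at -0.10 ± 0.66 and was not called (adjusted p = 0.949). Of the fibre markers, 7 of 11 fast-fibre genes were lower in soleus and 1 of 9 slow-fibre genes higher. The mean of adipocyte markers was 10.2, 11.7, 14.3 and 10.8 in soleus and 8.29, 9.01, 8.57 and 11.5 in gastrocnemius, and its part in the difference was not tested.

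The difference between the muscles and the change in exercised gastrocnemius at 1.0 mg/kg/day, which share no arrays, had the same sign for 36 of the 39 genes, 24 below 0 and 12 above. The exceptions were Hk2, Gyg1 and Gbe1. Pearson's r was 0.835 and Spearman's rho 0.831 across the genes, which are not independent of each other, so these are descriptions. The same values over all tested probe sets are not given here, so the agreement cannot be called particular to these genes. Some genes departed from the common line. Slc2a4 differed by -0.10 between the muscles and by -3.99 at the dose, Gys1 by -0.35 and -2.43, and Ldha by -1.95 and -1.53. Without exercised replicates 2 and 4 at the dose, Slc2a4 was at -1.76 (adjusted p = 0.04) and Gys1 and Ldha, at -1.06 and -1.08, were not called (adjusted p = 0.153 and 0.0634).

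**Figure D5:**
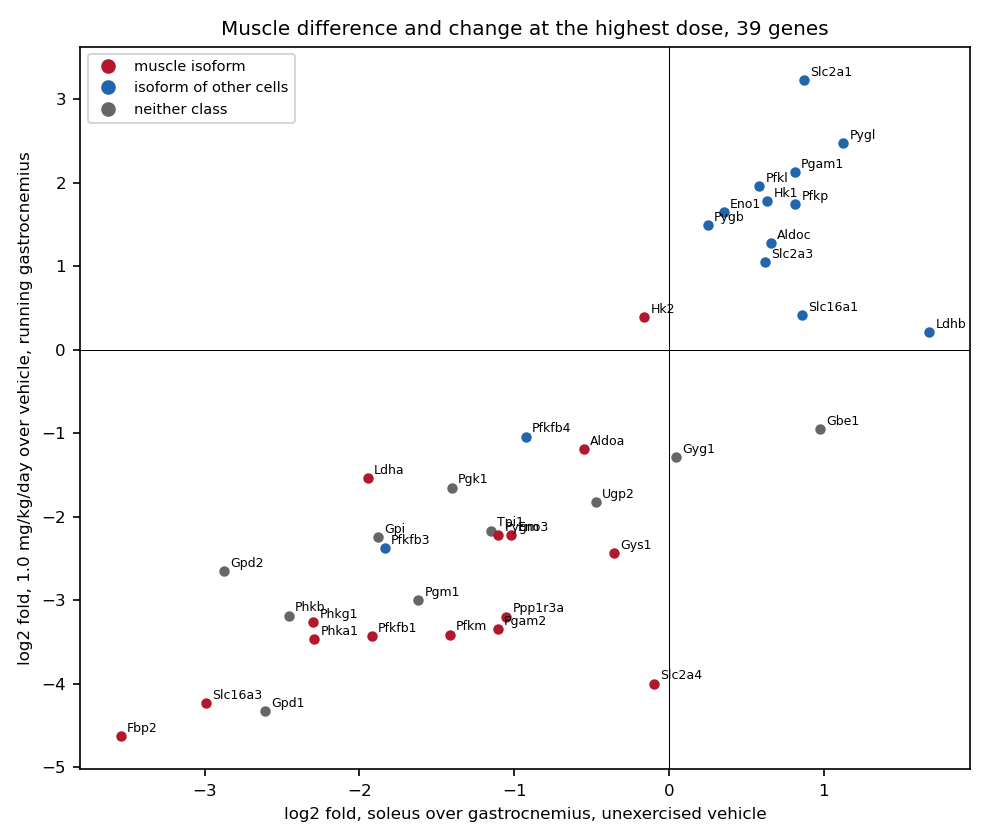
Each point is 1 of the 39 genes, with the log2 fold change of soleus over gastrocnemius in unexercised vehicle rats on the horizontal axis and that of 1.0 mg/kg/day over vehicle in running gastrocnemius on the vertical axis. The genes spread from Fbp2 (-3.54 and -4.63) at the lower left to Slc2a1 (0.87 and 3.23) at the upper right, and Slc2a4 lies at -0.10 and -3.99.

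The interaction of muscle with dose asks whether the change at 1.0 mg/kg/day differed between soleus and gastrocnemius. In exercised rats it was positive and called for 20 and negative and called for 8 of the 39 genes (11.6% and 13.7% of all probe sets). A positive value means that the gene fell less, or rose more, in soleus. Of the 15 muscle isoforms 14 were positive and of the 10 genes in neither class 6, and of the 14 isoforms of other cells 8 were negative. Of the 45 genes of the wider pathway, 12 were positive and called and 8 negative and called. The largest positive values were 4.36 for Gpd1, 3.98 for Slc16a3 and 3.97 for Fbp2 (adjusted p = 0.00295, 0.00634 and 0.0194). The largest negative values were -3.33 for Slc2a1, -2.71 for Pygl and -2.32 for Pgam1 (adjusted p = 0.00142, 0.0176 and 0.000222).

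Most of these interaction calls were lost without the 2 gastrocnemius arrays with the lowest muscle isoforms. Without exercised 1.0 mg/kg/day replicates 2 and 4, 0 genes were positive and called and 3 negative and called, namely Slc2a1, Pgam1 and Eno1, with a median of 0.82 against 1.54 before. Pygl lost its call with little change in value, from -2.71 to -2.59, while Slc2a4 went from 3.47 to 1.23. Only 2 treated gastrocnemius arrays then remained, so the values of the arrays left out and the smaller number of arrays cannot be told apart. In unexercised rats the interaction called 0 genes (0.0092% of all probe sets), with 22 genes and 18.1% of all probe sets at an unadjusted p below 0.05 and a median of 1.28. With the 4 arrays that stood apart left out, it called 27, and with only replicate 3 of gastrocnemius at 1.0 mg/kg/day left out, 24. The shares of all probe sets called with arrays left out are not given here, so these counts cannot be set against them.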

How the data were processed

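The authors deposited a linear intensity for each probe set on each array, computed with MAS5 (version and scaling target not given in the sources used here) according to the submitters' processing notes. Trimmed array means lay between 600.2 and 600.31, and the values were used as scaled. They were analysed as log2 values of the deposited signal plus 12.4, the 10th percentile of all values, so folds of dim probe sets are understated. Of 31099 probe sets, 57 controls were left out, and the 21729 with a mean log2 value at or above 6.03 (30th percentile) were tested. Gene symbols came from the platform annotation, and the tested probe set of highest mean stood for a gene.

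Group means were fitted with limma 3.58.1 (R 4.3.3; lmFit, contrasts.fit and eBayes with a trend), within gastrocnemius on 30 arrays, within soleus on 15 and between muscles on all 45, with Benjamini-Hochberg adjustment within each of 19 comparisons and a threshold of 0.05. Isoform differences and Gapdh were tested by exact permutation (scipy 1.17.1). All members were to be named, by role; the members, isoform classes and gene lists were chosen with earlier results of these data known. In simulated data for exercised gastrocnemius at 1.0 mg/kg/day, the fit recovered 33 of 100 probe sets changed by 1 log2 unit and 71 of 100 changed by 2. Alternatives covered the offset, filter, scaling, probe sets, prior, weights, samples in the fit, replicate block and left-out arrays. The number of arrays limits the precision.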

Additional observations from a re-analysis of the deposited data

Results flagged for a closer look

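An array was marked where its gap to the nearest of the other 3 in a group of 4, divided by the group's range, passed Dixon's critical value of 0.829. Over 20 measures and 9 groups, 180 sets were tested and 14 passed; chance alone marks about 1 in 20. Values are log2 signals.

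Exercised soleus at 1.0 mg/kg/day replicate 1 accounted for 7 of the 14. Its mean over the muscle isoforms was 11.4 (other arrays 12.3 to 12.5), and it was lowest for Pgam2 at 13.2 (14.6 to 14.7), Eno3 at 14.1 (15.3 to 15.4), Pygm at 14.0 (14.9 to 15.02), Pfkm at 13.1 (14.4 to 14.5) and Ldhb at 14.8 (15.5). It was highest for Slc2a1 at 9.63 (8.07 to 8.29). The same array had the highest adipocyte (14.4) and Schwann cell (14.5) means of the soleus arrays; their part in these values was not tested.

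Slc2a4 was 11.8 on unexercised 0.1 mg/kg/day gastrocnemius replicate 3 (13.6 to 13.8), which stood apart in most genes, and 13.8 on unexercised 0.5 mg/kg/day replicate 1 (13.7), a gap of little size. Pgam1 was 11.6 on unexercised 0.5 mg/kg/day gastrocnemius replicate 4 (11.2) and 12.5 on unexercised vehicle soleus replicate 3 (12.0). Eno1 was 12.5 on exercised vehicle gastrocnemius replicate 2 (11.7) and 13.2 on exercised 1.0 mg/kg/day gastrocnemius replicate 1 (13.7 to 13.8). Slc2a1 was 9.31 on exercised vehicle soleus replicate 4 (8.31 to 8.44).

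The change at 1.0 mg/kg/day differed between exercised soleus and exercised gastrocnemius for 28 of the 39 genes, by limma's interaction test with Benjamini-Hochberg adjustment. That number fell to 3 without replicates 2 and 4 of the treated gastrocnemius group, which left 2 arrays in that group.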

How the results depend on the processing

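None of 4396 recomputed gene values reversed a called direction: 4001 kept their side of the threshold, 235 lost a call and 160 gained one. Of 542 recomputed counts of called genes, 508 stayed within 1.5 times the reported count. Those that moved were mostly in unexercised gastrocnemius at 1.0 mg/kg/day (9 lower, 3 higher). There the lower genes numbered 5 without a prior trend, 0 with only the 2 groups in the fit (0 higher), 26 with array weights (9 higher) and 4 with the replicate block. Leaving out 1 replicate gave 0 to 22 lower and 0 to 6 higher. With 1 array that stood apart left out, an alternative chosen after seeing the data as the next ones are, there were 18 lower and 6 higher, and with 2 left out 23 and 9. For soleus against gastrocnemius at rest (12 lower, 0 higher), only the 2 groups in the fit gave 19 lower and 3 higher, array weights gave 4 higher, 4 arrays left out gave 2 higher, and leaving out 1 replicate gave 0 to 1 higher. With exercise, leaving out 1 replicate gave 4 to 8 higher. Array weights called 25 genes between exercise and rest at 1.0 mg/kg/day, 10 in the exercise-by-dose interaction and 32 in the muscle-by-dose interaction at rest. The last was 27 with 4 arrays left out and 0 to 24 without 1 replicate. With exercise, leaving out replicates 2 and 4 of gastrocnemius at 1.0 mg/kg/day changed that interaction from 8 lower and 20 higher to 3 and 0; leaving out 1 replicate gave 6 to 8 lower and 14 to 22 higher. The cause was not tested. Shares of all probe sets called under these alternatives are not given here.

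Correlations of deviations between same-numbered replicates were -0.0893 to 0.0584 for exercised gastrocnemius at 1.0 mg/kg/day and vehicle, -0.0124 to 0.0178 at rest, -0.145 to 0.125 between the muscles at rest and 0.0348 to 0.0886 with exercise, and -0.417 to 0.67 over all groups. Not every pair passed 0.1 in any of these, so the numbers were not taken as pairs; the replicate block gave 26 lower and 9 higher in the first. With arrays centred on their medians, the median over all probe sets in that comparison was -0.107, and quantile normalization gave 24 lower and 8 higher with a member median of -1.46. None of the 72 recomputed isoform differences reversed a direction that had passed the threshold, and in exercised rats none changed its side of it. At rest, 3 against 4 arrays allow no exact permutation p below 0.0571, so the side could not change there. Direction was not checked for differences that had not passed. These alternatives changed the offset or averaged probe sets, and none left out an array.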
